A study of Mus musculus with 4 samples.

Results

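The genes described here are 39 lysosomal genes other than cathepsins, listed by symbol: acid hydrolases and their helper proteins, proteins of the lysosomal membrane, subunits of the proton pump and the transcription factor Tfeb. Every probe set annotated to exactly 1 of these symbols was used, which gave 85 probe sets for 38 genes, out of 34945 named probe sets for 18193 genes in the series. Cd63, a tetraspanin of late endosomes, had no such probe set and was not analysed here. The signals came from 4 Affymetrix arrays hybridised with RNA of mouse dendritic cells, 1 for each group. Bone marrow of C57/BL6 mice was grown for 6 to 7 days in 20 ng/mL GM-CSF, and non-adherent cells were enriched for CD11c with beads. The groups were wild-type (WT) cells and cells of mice without the liver X receptors α and β (LXR-DKO, double knockout), each kept for a further 24 h in 10 ng/mL GM-CSF, alone as immature cells or with 100 ng/mL of the bacterial lipopolysaccharide LPS as matured cells. All 4 groups thus had GM-CSF throughout. The age, the sex, how the receptors were deleted and the number of mice per culture were not given in the sources used here.

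Lysosomes break down material that cells take up or recycle. A vacuolar proton pump (V-ATPase), made of a V1 sector that splits ATP and a V0 sector in the membrane, acidifies them, and each hydrolase cuts a particular bond in glycolipids, glycosaminoglycans, glycoproteins, glycogen or lipids. In dendritic cells the same compartment prepares antigen for display on MHC class II molecules. TFEB and its relatives TFE3 and MITF bind a short palindrome found near many lysosomal genes, and LXRs are oxysterol-activated receptors that control genes of cholesterol export, so that the release of cholesterol from lysosomes lies upstream of the ligands they sense.

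Each array had been scaled to 1 trimmed mean before deposit, and between 47.8% and 52.6% of probe sets reached 28.9, the pooled median signal, which served as a floor: lower values were set to it. Each gene was read from its brightest probe set. With 1 array per group there is no replicate error and no test. A difference of 2-fold or more, a log2 ratio of 1, was counted. The spread used is how far log2 ratios differ between probe sets of 1 gene. Its SD was 0.29 for LPS in WT, 0.42 for LPS in LXR-DKO, 0.45 between genotypes without LPS and 0.54 with LPS. This spread holds no variation between mice, cultures or arrays, so a ratio beyond it can still lie within that variation. The targeted gene Nr1h3 (LXRα) had signals of 108.6 (untreated) and 54.5 (LPS) in WT cells and of 40.4 and 27.0 in LXR-DKO cells, but whether its probe set lies in the deleted part was not known here. Of the 85 member probe sets, 66 reached the floor on all 4 arrays, 7 on 1 to 3 and 12 on none. By the brightest probe set, 37 of the 38 genes did so on all 4, the exception being Sgsh.

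Cell markers differed between the cultures as well, and the genotype differences below stand beside them. The summed signal of 7 neutrophil markers was 1858.2 in untreated WT and 1964.5 in LPS-treated WT, against 17455.1 and 16643.6 in LXR-DKO. That of 8 mast cell, basophil and eosinophil markers was 438.9 and 235.1 in WT and 1560.6 and 2329.0 in LXR-DKO, and that of 4 B cell markers 88.4 and 71.6 in WT and 491.5 and 1707.1 in LXR-DKO. Of the mast cell, basophil and eosinophil markers, Kit was lower in untreated LXR-DKO, at 49.3 against 92.3 in untreated WT. Fcer1a differed little there, at 36.3 against 33.5. The 7 macrophage markers with a probe set summed to 20119.0 and 30536.6 in WT and to 25492.2 and 26427.2 in LXR-DKO, but C1qa was below the floor in WT and at 5335.4 and 2680.3 in LXR-DKO, while Trem2 was at 4302.2 and 2762.6 in WT and 286.4 and 220.3 in LXR-DKO. The 7 osteoclast markers, which include the lysosomal genes Acp5 and Ctsk, summed to 4900.7 and 9167.4 in WT and to 2601.2 and 2671.5 in LXR-DKO. Nfatc1 on that list went the other way, at 287.2 and 149.7 in WT and 963.8 and 625.8 in LXR-DKO. Calcr was below the floor on every array. Of 6 dendritic cell markers, 5 or 6 reached the floor on each array, and they summed to 19026.6 and 17640.8 in WT and 27622.1 and 31714.6 in LXR-DKO. Itgax, which encodes CD11c, was at 5012.2 and 6093.0 in WT and lower, at 4404.5 and 3848.1, in LXR-DKO. The other 5 were higher there or near the floor: Cd74 was 1.32-fold and 1.35-fold, H2-Aa 1.92-fold and 2.83-fold and Ccr7 5.91-fold and 28.2-fold higher, Zbtb46 was at 39.4 and 29.0 in WT against 305.9 and 393.3, and Flt3 reached the floor only in LPS-treated LXR-DKO. Markers of T and NK cells summed to at most 70.8 and those of stroma to at most 178.0. In such cultures fewer cells of a type and less RNA per cell cannot be told apart, and the part of the markers in the results below was not tested.

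The comparison of genotypes asked how lysosomal genes differed in cells without LXRs. Most members had lower signals in LXR-DKO: 31 of 38 without LPS and 30 of 38 with LPS had a ratio of LXR-DKO to WT below 0 on the log2 scale, where 47.3% and 41.7% of all measured genes were. Their median log2 ratio was -0.65 without LPS and -0.73 with LPS, against 0.05 and 0.15 over all measured genes. At least 2-fold lower were 10 of 38 members without LPS, where 9.28% of 11728 measured genes were, and 11 of 38 with LPS, where 8.76% of 12014 were. At least 2-fold higher were 3 of 38 members in each condition, against 12.7% and 17.8% of all measured genes. Lower by 2-fold in both conditions were 8 members, Gla, Atp6v0d2, Atp6v1h, Atp6v1a, Lipa, Npc1, Smpdl3a and Galns, where 6.15% of genes were, and Gm2a, Ids and Sgsh were higher in both, where 10.3% were. The comparison without LPS and that with LPS share no array, but whether they share mice was not given, so they cannot be taken as independent. Of the 8 lower members, Gla, Lipa, Atp6v0d2, Atp6v1a and Atp6v1h stayed past 2-fold in both conditions under each of the 9 alternative settings that recompute ratios, as did Gm2a and, where it had a value, Sgsh among the higher members. Scaling to the hybridisation controls, which moves the median of all genes by 0.21 and 0.28, gave 5 higher and 5 lower without LPS, with 27 below 0, and 4 higher and 6 lower with LPS, with 25 below 0. The medians of the members relative to all genes were then -0.68 and -0.84.

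**Figure D1:**
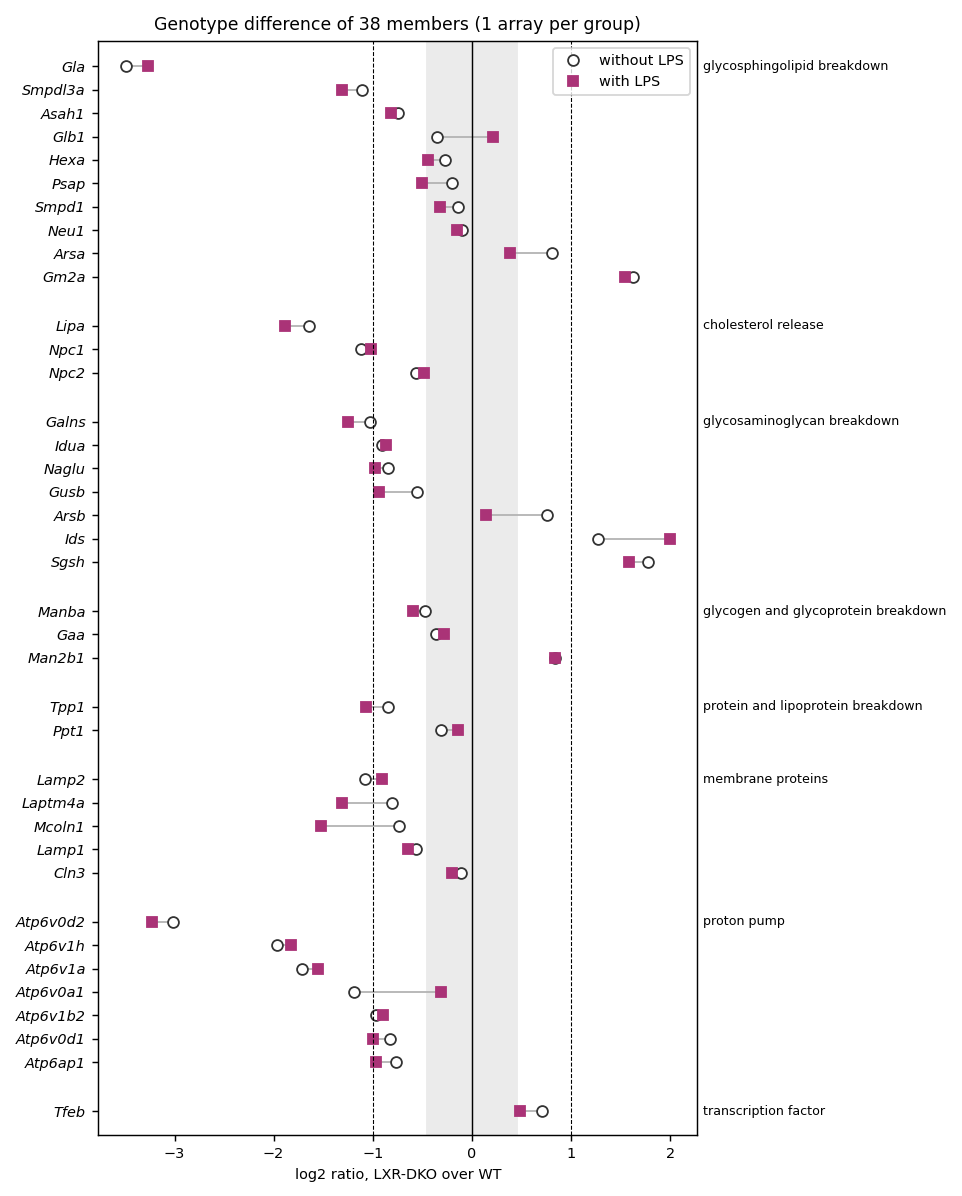
Log2 ratio of LXR-DKO over WT (horizontal axis) for the 38 members by function, without LPS (open circles) and with LPS (filled squares), 1 array per group. Dashed lines mark 2-fold, the grey band is ±1 SD between probe sets without LPS (0.45), and Sgsh without LPS is a lower limit. All 7 proton pump members lie left of 0 on these values (Atp6v0a1 with LPS is at 0.01 when scaled to the hybridisation controls), and Gla and Atp6v0d2 lie furthest left.

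**Figure D2:**
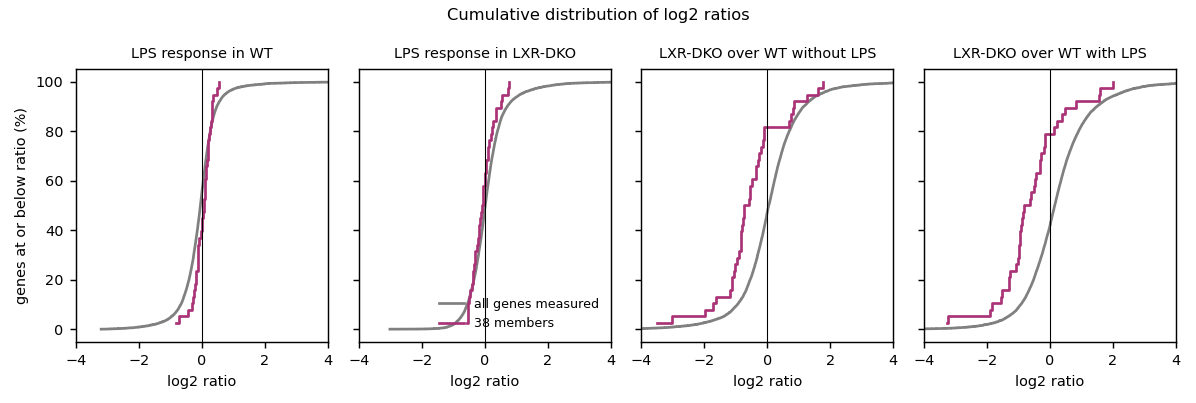
Cumulative share of genes (vertical axis, %) at or below each log2 ratio (horizontal axis) for the 38 members and for all measured genes, in 4 comparisons with 1 array per group. The members' curve lies left of that of all genes in both genotype panels, where the members' medians are -0.65 and -0.73.

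In 32 of the 39 listed genes RefSeq's promoter table (GRCm38.p6, 250 bases before to 50 after an annotated start) had an entry, and these windows were searched for the E-box core CACGTG, and for the longer palindrome of TFEB sites that has GT before and AC after this core; both read the same on either strand. The core was found in 11 of 32 members, or 34.4%, and in 8.09% of all 27025 genes in the table; by window, 7.15% of 32851 held it. The full palindrome was found in 1 member, Cln3, and in 0.370% of all genes. The core occurred in members on both sides: Gla, Atp6v1a, Atp6v0d1, Naglu, Mcoln1, Lamp1, Gaa and Cln3 had ratios below 0 in both conditions, Sgsh and Arsa above 0, and Glb1 1 of each; scaled to the hybridisation controls, Cln3 was above 0 in both and Gaa with LPS. The 11 members with it had median log2 ratios of -0.57 and -0.64 and the 20 measured members without it of -0.39 and -0.46, while the 7 measured members with no entry had medians of -1.11 and -1.25. The 250 bases before the start are shown for an enzyme, a pump subunit and a membrane protein that were lower, and for the higher gene Sgsh, 5′ to 3′ on the gene's strand with CACGTG in capitals, because they hold the same core and differ in direction. They are chrX:134601006-134601255 for Gla, chr16:44139260-44139509 for Atp6v1a and chr11:119355511-119355760 for Sgsh, on the minus strand, and chr8:3500269-3500518 for Mcoln1 on the plus strand. Counted from the 5′ end, the core starts at bases 24 and 57 in Gla, 120 in Atp6v1a, 180 and 206 in Mcoln1 and 222 in Sgsh.
Gla: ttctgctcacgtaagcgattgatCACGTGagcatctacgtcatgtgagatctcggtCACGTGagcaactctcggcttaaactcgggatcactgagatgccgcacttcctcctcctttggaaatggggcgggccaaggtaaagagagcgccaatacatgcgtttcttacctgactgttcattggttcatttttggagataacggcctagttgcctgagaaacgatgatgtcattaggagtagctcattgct
Atp6v1a: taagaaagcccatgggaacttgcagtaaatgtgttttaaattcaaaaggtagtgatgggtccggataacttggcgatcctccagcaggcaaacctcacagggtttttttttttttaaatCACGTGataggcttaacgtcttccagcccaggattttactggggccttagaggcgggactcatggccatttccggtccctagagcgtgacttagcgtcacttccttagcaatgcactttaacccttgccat
Mcoln1: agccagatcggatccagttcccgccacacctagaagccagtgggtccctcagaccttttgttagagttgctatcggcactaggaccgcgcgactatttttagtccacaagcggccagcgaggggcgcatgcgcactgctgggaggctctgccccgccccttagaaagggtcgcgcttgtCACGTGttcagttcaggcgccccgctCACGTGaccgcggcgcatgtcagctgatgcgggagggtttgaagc
Sgsh: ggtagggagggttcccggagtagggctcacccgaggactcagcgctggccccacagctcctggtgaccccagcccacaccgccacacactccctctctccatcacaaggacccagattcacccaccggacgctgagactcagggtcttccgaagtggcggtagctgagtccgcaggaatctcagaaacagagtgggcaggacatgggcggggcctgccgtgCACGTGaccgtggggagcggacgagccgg

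The proton pump was lower in LXR-DKO across all 7 measured members, apart from Atp6v0a1 at 0.01 with LPS when scaled to the hybridisation controls. Their median log2 ratio was -1.19 without LPS and -0.99 with LPS. At least 2-fold lower were 4 and 3 of the 7, against 9.28% and 8.76% of all measured genes. Atp6v0d2, an isoform of the d subunit of the membrane sector known from osteoclasts and other specialised cells, had signals of 6621.3 (untreated) and 7283.1 (LPS) in WT cells and of 818.7 and 776.9 in LXR-DKO cells. It was thus 8.09-fold lower in LXR-DKO without LPS and 9.37-fold lower with LPS, with both WT arrays high and both LXR-DKO arrays low. Only 102 of 11728 measured genes without LPS and 43 of 12014 with LPS had a lower ratio. Its second probe set gave -2.90 and -2.71 on the log2 scale. The widely expressed isoform of the same subunit, Atp6v0d1, had signals of 5120.2 and 5021.4 in WT and 2882.1 and 2520.6 in LXR-DKO, log2 ratios of -0.83 and -0.99.

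In the V1 sector, Atp6v1a, the catalytic A subunit, had signals of 4598.8 (untreated) and 4660.0 (LPS) in WT cells and of 1401.3 and 1592.6 in LXR-DKO cells, so that it was 3.28-fold and 2.93-fold lower. Atp6v1h, the H subunit that couples V1 to V0, had signals of 2425.3 and 2601.3 in WT and 620.0 and 733.1 in LXR-DKO. It was 3.91-fold and 3.55-fold lower, while its second probe set gave log2 ratios of -0.54 and -1.68. For both subunits the 2 LXR-DKO arrays lay below the 2 WT arrays. Atp6v1b2, the B subunit isoform of most tissues, had signals of 6258.1 and 5750.9 in WT and 3203.5 and 3092.2 in LXR-DKO. Its log2 ratios of -0.97 and -0.90 lay just under 2-fold, and its second probe set gave -1.83 and -1.68.

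Atp6v0a1, an isoform of the a subunit of the membrane sector, was the pump member whose genotype difference varied most between the 2 conditions. Its signals were 1217.0 (untreated) and 687.0 (LPS) in WT cells, against 535.1 and 554.8 in LXR-DKO cells, and the untreated WT array stood apart from the other 3. It was 2.27-fold lower in LXR-DKO without LPS and 1.24-fold lower with LPS, the first at -0.96 on the log2 scale, under 2-fold, with hybridisation controls. The accessory protein Atp6ap1 had signals of 4505.8 and 4670.7 in WT and 2656.4 and 2390.9 in LXR-DKO. Of 11 further pump subunits with a probe set, from a list of 12, 10 were below 0 in each condition. Against 9.28% and 8.76% of all measured genes, 4 of the 11 subunits were at least 2-fold lower in each condition. The lowest of these was Tcirg1, the a subunit isoform of osteoclast and immune cell lysosomes, at -1.56 in both conditions, followed by Atp6v1e1 at -1.47 and -1.48 and Atp6v1c1 at -1.35 and -1.32. Over all 18 listed subunits measured, 17 were below 0 in each condition and the exception was Atp6v0a2, at 0.59 without LPS and 0.01 with LPS.

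Of the 10 members that break down glycosphingolipids or help to do so, 8 were below 0 without LPS and 7 with LPS, or 5 and 6 when scaled to the hybridisation controls, and single members were far apart. Gla, the alpha-galactosidase that removes a terminal galactose from glycolipids, had the lowest ratio of all 38 members. Its signals were 2865.3 (untreated) and 4126.0 (LPS) in WT cells, against 254.5 and 427.9 in LXR-DKO cells, which made it 11.3-fold lower without LPS and 9.64-fold lower with LPS. Only 56 and 41 of all measured genes had a lower ratio. A second, dimmer probe set, with signals of 191.2, 540.6, 53.2 and 133.5 in the same order, gave log2 ratios of -1.85 and -2.02.

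Gm2a, the activator protein that lifts ganglioside GM2 out of the membrane for hexosaminidase A, went the other way. Its signals were 2292.2 (untreated) and 1666.6 (LPS) in WT cells, against 7053.2 and 4866.9 in LXR-DKO cells, 3.08-fold and 2.92-fold higher in LXR-DKO. Hexa, the enzyme subunit that Gm2a serves, stood at 4904.0, 4904.8, 4066.3 and 3613.1 in the same order, with log2 ratios of -0.27 and -0.44. Both were smaller than the spread between probe sets, unlike the differences of Gm2a. Psap, the precursor of the saposin helper proteins, had log2 ratios of -0.20 and -0.50.

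Smpdl3a, a phosphodiesterase related to acid sphingomyelinase, had signals of 2263.9 (untreated) and 1823.0 (LPS) in WT and 1051.4 and 732.7 in LXR-DKO. It was 2.15-fold and 2.49-fold lower in LXR-DKO, or -0.88 and -0.997 on the log2 scale under hybridisation control scaling, just under 2-fold. Acid sphingomyelinase itself, Smpd1, differed by -0.14 and -0.32 and the neuraminidase gene Neu1 by -0.10 and -0.15. Both lay within the spread between probe sets in each condition. Acid ceramidase, Asah1, stood at -0.75 and -0.82. The sulfatide-cleaving arylsulfatase Arsa was higher at 0.81 without LPS and at 0.38 with LPS, and Glb1, the beta-galactosidase of GM1 ganglioside, was at -0.35 and 0.21. On these values no other member had opposite signs in the 2 conditions, but small ratios turned with the scaling. With equal 75th percentiles Glb1 was at -0.08 with LPS and Arsb had opposite signs, as it did after quantile normalization, and with hybridisation controls Psap, Smpd1, Gaa, Ppt1 and Atp6v0a1 had opposite signs beside Glb1.

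**Figure D3:**
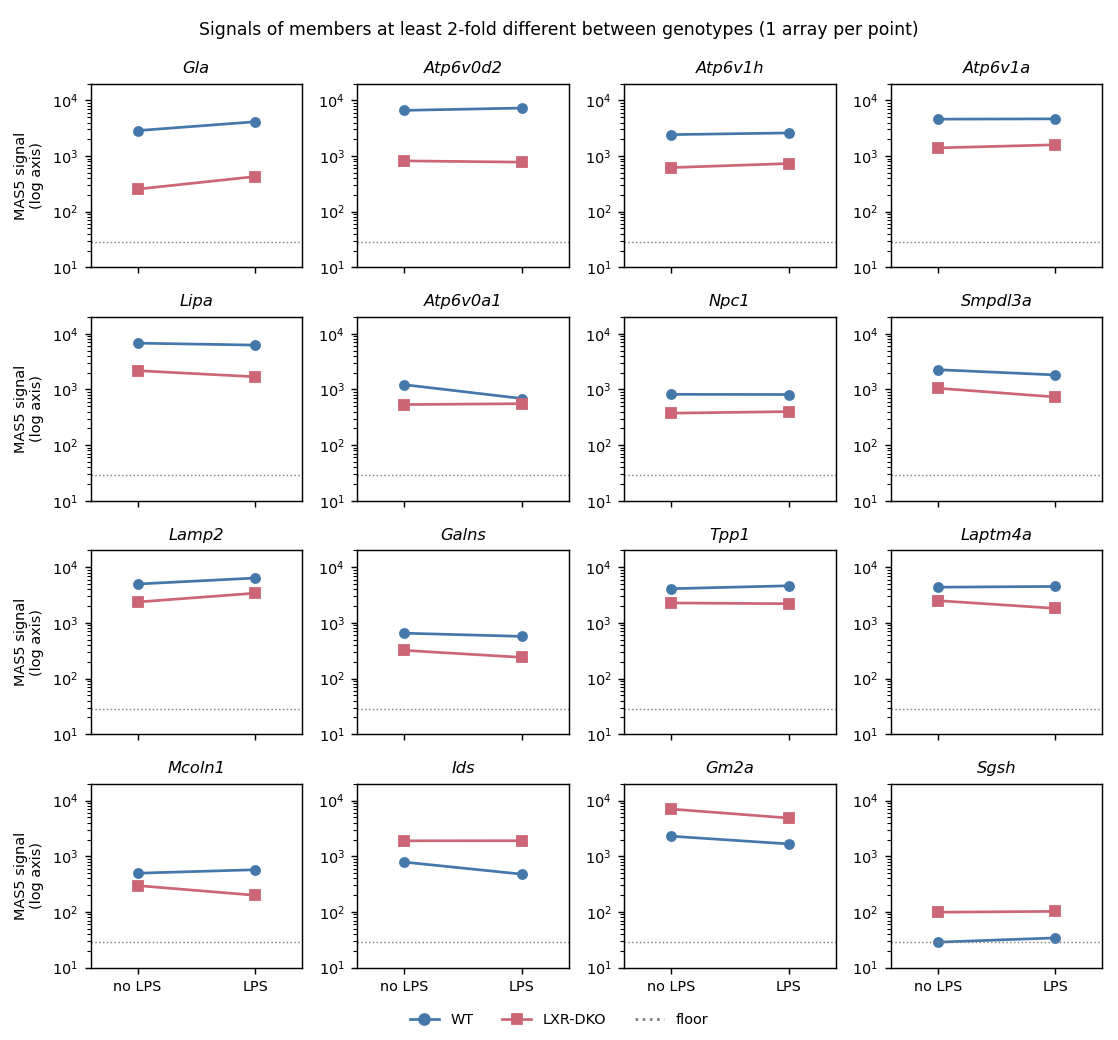
MAS5 signal (log axis) without and with LPS of the 16 members at least 2-fold different between genotypes in either condition, WT as circles and LXR-DKO as squares, 1 array per point, with lines joining arrays of 1 genotype and the floor dotted. The LXR-DKO line runs below the WT line in 13 panels and above it for Ids, Gm2a and Sgsh.

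The 3 genes that free cholesterol from lysosomes were all lower in LXR-DKO, under every alternative too. Lipa, the acid lipase that cleaves cholesteryl esters and triglycerides, had signals of 6791.8 (untreated) and 6267.5 (LPS) in WT cells and of 2175.1 and 1690.3 in LXR-DKO cells. It was 3.12-fold and 3.71-fold lower, and its 2 other probe sets gave larger differences, down to -2.60 without LPS and -3.02 with LPS. Npc1, the membrane transporter that exports the freed cholesterol, had signals of 817.3 and 810.8 in WT and 374.9 and 399.8 in LXR-DKO. It was 2.18-fold and 2.03-fold lower, but at -0.89 and -0.70 on the log2 scale under hybridisation control scaling. Npc1 stayed past 2-fold under 8 of the 9 alternatives without LPS and 7 with LPS. Npc2, the soluble carrier that hands cholesterol to Npc1, had signals of 7349.7, 10194.3, 4978.5 and 7311.5 in the order untreated WT, treated WT, untreated LXR-DKO, treated LXR-DKO, with log2 ratios of -0.56 and -0.48. The signal of Npc2 in LPS-treated LXR-DKO was thus about that in untreated WT.

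The 7 enzymes of glycosaminoglycan breakdown split by sign, 4 below 0 and 3 above 0 in each condition. Lower were Galns, Idua, Naglu and Gusb. Galns, which takes sulfate off keratan and chondroitin sulfate, had signals of 652.0 (untreated) and 571.7 (LPS) in WT cells and of 320.4 and 239.9 in LXR-DKO cells. It was 2.03-fold and 2.38-fold lower, but at -0.80 and -0.93 on the log2 scale under hybridisation control scaling. Galns stayed past 2-fold under 7 of the 9 alternatives without LPS and 8 with LPS. Idua, the iduronidase, stood at -0.91 and -0.87, Naglu, which removes N-acetylglucosamine from heparan sulfate, at -0.85 and -0.98, and the beta-glucuronidase Gusb at -0.56 and -0.94.

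Ids, Sgsh and Arsb were above 0. All are sulfatases, as is Galns, which was lower. Ids, the iduronate sulfatase that acts just before Idua, had signals of 785.0 (untreated) and 477.0 (LPS) in WT cells and of 1895.0 and 1902.9 in LXR-DKO cells, 2.41-fold and 3.99-fold higher in LXR-DKO. Its 3 other probe sets above the floor gave log2 ratios from 1.30 to 1.49 without LPS but only from 0.33 to 0.72 with LPS, so that the median over its probe sets with LPS was 0.64. Sgsh, the heparan N-sulfatase, was dim, with signals of 28.6, 34.1, 98.8 and 102.2 in the order untreated WT, treated WT, untreated LXR-DKO, treated LXR-DKO, and its log2 ratio was at least 1.77 without LPS and 1.58 with LPS. The first is a lower limit, because the untreated WT value lay under the floor. The second probe set of Sgsh had signals of 15.7, 23.6, 50.8 and 9.7 in the same order. It reached the floor only in untreated LXR-DKO, so it gave no ratio with LPS. Arsb stood at 0.76 and 0.14, but with LPS at -0.15 with equal 75th percentiles and just below 0 after quantile normalization, which made the split 5 below and 2 above. Among enzymes of glycoproteins and glycogen, the alpha-mannosidase Man2b1 had signals of 2961.8 and 2464.0 in WT and 5277.0 and 4406.5 in LXR-DKO, log2 ratios of 0.83 and 0.84, while the beta-mannosidase Manba was at -0.47 and -0.59 and the glycogen-cleaving glucosidase Gaa at -0.36 and -0.28.

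Of the peptidase Tpp1 and the depalmitoylating enzyme Ppt1, Tpp1 had signals of 4108.5 and 4637.0 in WT and 2277.5 and 2208.0 in LXR-DKO, 1.80-fold lower without LPS and 2.10-fold with LPS. The latter fell short of 2-fold under 3 of the 9 alternatives, at -0.75 on the log2 scale with hybridisation controls, -0.82 after quantile normalization and -0.997 by the median over probe sets. Ppt1 had log2 ratios of -0.31 and -0.14, within the spread between probe sets.

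All 5 measured membrane proteins were below 0 in both conditions, although Cln3 was at 0.12 in both when scaled to the hybridisation controls and Mcoln1 at 0.14 without LPS from probe sets without a suffix. Lamp2, a heavily glycosylated protein of the limiting membrane needed for autophagy, had signals of 4986.6 (untreated) and 6386.5 (LPS) in WT cells and of 2368.5 and 3413.5 in LXR-DKO cells, 2.11-fold and 1.87-fold lower in LXR-DKO. Its probe sets did not go the same way: 3 of 4 were below 0, down to -1.24 and -1.38, and the fourth was at 0.34 and 0.35. Without LPS it fell short of 2-fold under 3 alternatives, at -0.78 by the median over probe sets, -0.84 with hybridisation controls and -0.95 after quantile normalization. Its relative Lamp1 had signals of 6509.8 and 7321.3 in WT and 4397.0 and 4695.5 in LXR-DKO, log2 ratios of -0.57 and -0.64. Mcoln1, the calcium channel TRPML1, had signals of 495.7 (untreated) and 572.8 (LPS) in WT cells and of 296.8 and 199.1 in LXR-DKO cells. It was 1.67-fold lower without LPS and 2.88-fold lower with LPS. Laptm4a, a small transmembrane protein, had signals of 4372.2, 4510.1, 2506.3 and 1822.2 in the order untreated WT, treated WT, untreated LXR-DKO, treated LXR-DKO, 1.74-fold and 2.48-fold lower, the latter just under 2-fold, at -0.989, with hybridisation controls. Cln3 differed least, at -0.11 and -0.20.

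**Figure D4:**
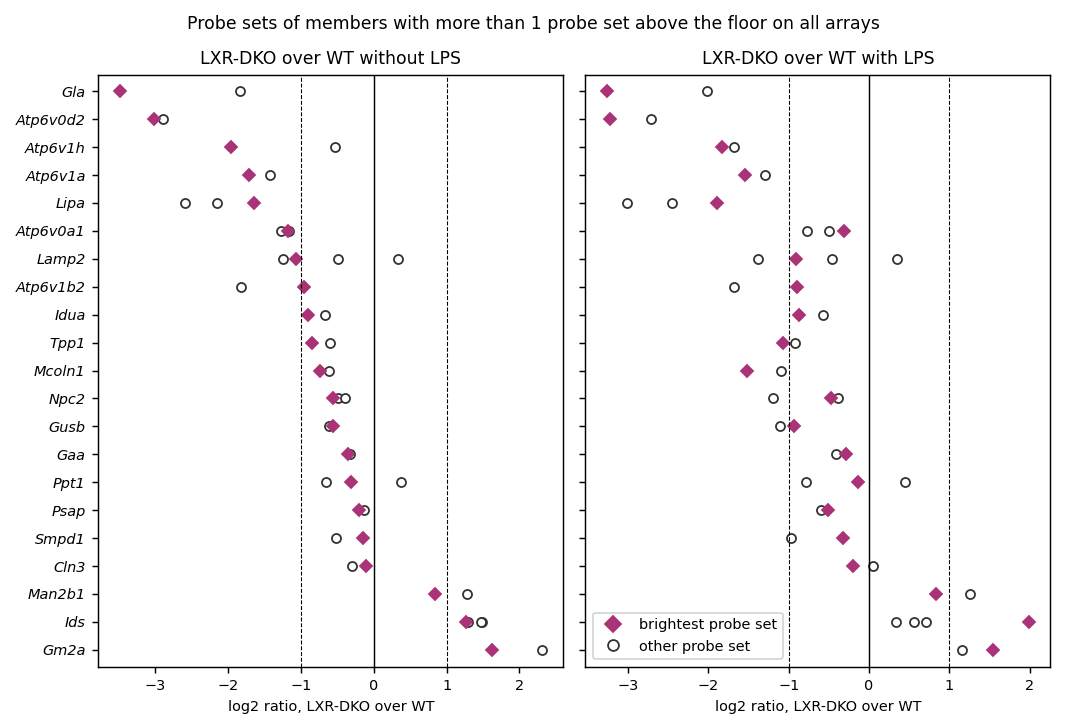
Log2 ratio of LXR-DKO over WT (horizontal axis) without LPS (left) and with LPS (right) for each probe set that reached the floor on every array, in the 21 members with more than 1 such probe set; diamonds are the brightest. Probe sets had 1 sign in 19 of 21 members without LPS and 18 of 21 with LPS, with Lamp2 and Ppt1 split in both panels.

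Tfeb, the regulator of lysosomal genes, was itself not lower in LXR-DKO. Its signals were 186.3 (untreated) and 175.4 (LPS) in WT cells, against 303.2 and 245.6 in LXR-DKO cells, log2 ratios of 0.70 without LPS, above the spread between probe sets, and 0.49 with LPS, below it. Its relative Tfe3 had ratios of 0.41 and 0.08. Mitf, the other relative, had signals of 1464.4 and 1761.6 in WT and 325.5 and 458.4 in LXR-DKO, and was 4.50-fold and 3.84-fold lower. Tfeb and Mitf thus differed in direction. Among 15 listed sorting receptors and regulators, 12 were below 0 without LPS and 13 with LPS, where 47.3% and 41.7% of all measured genes were. At least 2-fold lower were 6 and 5 of the 15, against 9.28% and 8.76% of all measured genes. At least 2-fold higher were 0 in each condition, against 12.7% and 17.8%. Igf2r, the mannose 6-phosphate receptor that delivers many of these hydrolases, was 9.44-fold and 7.69-fold lower, and Rragd, a GTPase of the lysosomal nutrient sensor, at least 4.99-fold and 5.34-fold lower.

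Lists of further lysosomal genes, drawn by function, were read in the same way. There were 21 other hydrolases and membrane proteins with a probe set, from 28 symbols. At least 2-fold higher in LXR-DKO was 1 of the 21 in each condition, against 12.7% and 17.8% of all measured genes. Where 9.28% and 8.76% of all measured genes were at least 2-fold lower, 8 of the 21 were in each condition. The lowest without LPS were Hgsnat, the acetyltransferase of heparan sulfate breakdown, at -2.51, Aga, which cleaves glycosylated asparagine, at -1.63, and the peptidase Lgmn at -1.46. With LPS they were Hgsnat at -2.98, Acp5, the tartrate-resistant phosphatase, at -2.14, and Cd68, a macrophage lysosomal membrane protein, at -2.06. The higher gene without LPS was Plbd2, at 1.26 and then 0.61 with LPS. With LPS it was Galc, the galactosylceramidase, at 1.16, against -1.06 without LPS. The 11 cathepsins had medians of -0.56 and -0.59, against 0.05 and 0.15 over all measured genes. At least 2-fold lower was 1 of the 11 in each condition, against 9.28% and 8.76% of all measured genes. At least 2-fold higher was also 1 of the 11, against 12.7% and 17.8%. The lower was Ctsk, at -4.56 and -4.49, and the higher Ctse, at 4.82 and 4.51. Whether the members differ from these lists was not tested.

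Gla, Ids, Lamp2 and Atp6ap1 are on the X chromosome. The X-inactivation transcript Xist had signals of 30.8 and 22.7 in WT and 2750.0 and 2090.4 in LXR-DKO, and the Y-linked gene Eif2s3y 736.6 and 721.0 in WT and 279.6 and 384.3 in LXR-DKO, so the cultures also differed in sex-linked transcripts. Of the 4 X-linked members, Ids was higher and the other 3 lower in LXR-DKO. Without them, the median of the remaining 34 members was -0.56 without LPS and -0.62 with LPS; the part of sex in the differences was not tested.

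The second question was how LPS for 24 h altered these genes. By the brightest probe set, no member reached 2-fold with LPS in either genotype, where 2.93% of 11449 genes were higher and 4.79% lower in WT cells. In LXR-DKO cells 6.23% of 11793 were higher and 1.82% lower. Over all genes measured in both, 87.1% stayed under 2-fold in both. Members had median log2 ratios of 0.05 (WT) and -0.06 (LXR-DKO), against -0.05 and 0.02 over all genes, and 16 of 38 were below 0 in WT and 22 of 38 in LXR-DKO, where 56.0% and 48.4% of all genes were. The sign of the WT median turned under 3 of the alternatives. In the 21 members with more than 1 probe set above the floor on all arrays, probe sets often differed in sign. They had 1 sign of response in 17 members in WT but in only 11 in LXR-DKO. For the difference of the 2 responses they had 1 sign in 11.

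**Figure D5:**
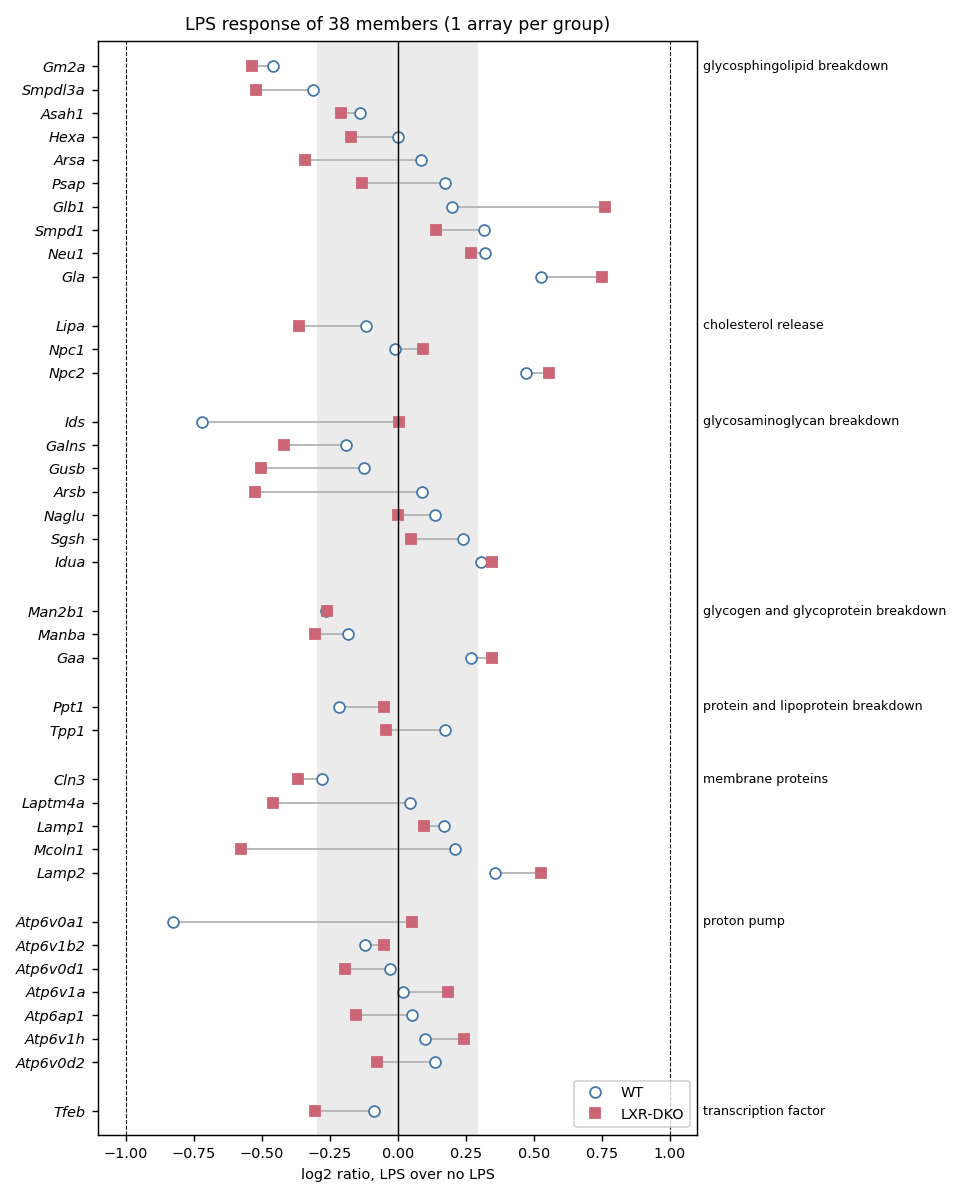
Log2 ratio of LPS over no LPS (horizontal axis) for the 38 members by function, WT as open circles and LXR-DKO as filled squares, 1 array per group. Dashed lines mark 2-fold and the grey band is ±1 SD between probe sets in WT (0.29). All points lie between -0.82 for Atp6v0a1 in WT and 0.76 for Glb1 in LXR-DKO.

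The 5 members furthest from 0 with LPS in WT were Atp6v0a1 at -0.82, Ids at -0.72, Gla at 0.53, Npc2 at 0.47 and Gm2a at -0.46, each beyond the spread between probe sets of 0.29. In LXR-DKO they were Glb1 at 0.76, Gla at 0.75, Mcoln1 at -0.58, Npc2 at 0.55 and Gm2a at -0.54, beyond the spread of 0.42. The value of Ids in WT rested on its brightest probe set. Its 3 others above the floor were between -0.10 and 0.17 in WT, and its median over probe sets was 0.03. Gla, Npc2 and Lamp2 were higher with LPS in both genotypes, and Gm2a and Smpdl3a lower in both, by brightest probe sets beyond the spread in that genotype. The other probe sets did not all bear this out: the 3 others of Lamp2 were between -0.07 and 0.17 in LXR-DKO, its median over probe sets was 0.18 in WT and 0.13 in LXR-DKO, both within the spread, and the dimmest probe set of Npc2 above the floor was at 0.59 in WT and -0.20 in LXR-DKO. With equal 75th percentiles Smpdl3a was at -0.18 in WT, within the spread. For Gla and Gm2a the second probe sets gave larger responses: Gla went from 191.2 to 540.6 in WT cells and from 53.2 to 133.5 in LXR-DKO cells, and Gm2a had log2 ratios of -0.82 and -1.97. The responses of the pump members other than Atp6v0a1 stayed between -0.19 and 0.24 in both genotypes when read from the brightest probe sets. Some dimmer probe sets went beyond this range. The second of Atp6v1h rose with LPS in WT cells, by 0.48, but fell in LXR-DKO cells, to -0.66. For Atp6v1a the second gave 0.35 in LXR-DKO cells. For Atp6v0a1 the brightest probe set gave -0.82 in WT cells and 0.05 in LXR-DKO cells. Its 2 others above the floor on every array fell with LPS in both genotypes. The brighter of these went from 793.5 to 279.7 in WT cells, at -1.50 past 2-fold, and gave -0.72 in LXR-DKO cells. The dimmer gave -0.93 in WT cells and -0.53 in LXR-DKO cells.

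The difference of the 2 LPS responses, LXR-DKO minus WT, was read from the brightest probe sets. It was under 2-fold for all 37 members with 4 values above the floor. Of 9623 such genes, 6.55% had a difference of 2-fold or more upwards and 1.65% downwards. Among members the difference was largest for Atp6v0a1 at 0.88, Mcoln1 at -0.78, Ids at 0.72, Arsb at -0.62 and Glb1 at 0.56. For Ids the other 3 probe sets had differences of -0.77 to -0.97, the opposite sign, so that no direction can be given. For Mcoln1 the second probe set gave -0.48, and for Atp6v0a1 the 2 others above the floor gave 0.79 and 0.40. Second probe sets passed 2-fold downwards for Gm2a, at -1.15, and for Atp6v1h, at -1.14, where the brightest gave -0.08 and 0.14. That of Atp6v1h was dim, at 33.9 in LPS-treated LXR-DKO.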

How the data were processed

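Per the labels, total RNA was taken from 4 cultures on columns and biotinylated cRNA, amplified in 2 cycles, was hybridised, 1 array per sample. Per the submitters' processing notes MAS5 was used; the deposited intensity values are on a linear scale, judged from their range. Its version and settings, and detection calls, are not given in the sources used here. The deposited values had been scaled: the mean after leaving out 2% of values at each end is 200.0 on every array. Of 45101 probe sets, 64 controls were left out. By GEO's platform annotation, 34945 had 1 gene symbol, 932 several and 9160 were unnamed here.

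A floor at the pooled median, 28.9, was set, log2 was taken, and ratios were computed from the brightest probe set of each gene by mean signal. A gene was measured in a comparison when at least 1 array reached the floor. For the difference of responses all 4 had to. A ratio with 1 value under the floor is a lower limit on its size. No p-value can be given for single arrays, and their number sets the precision. Counting was tested on simulated data. Every member is accounted for, and those at least 2-fold different between genotypes are given by signal on all arrays. Of each other lysosomal list, up to 3 genes with the largest ratios either way in the comparison described, Tfe3 and Mitf are named. C1qa, Trem2, Nfatc1, Kit, Fcer1a and the dendritic cell markers named singly, and the probe sets given beside the brightest, were picked after their values were seen. The members and lists were chosen with earlier results of these data known. Python 3.11.15, numpy 2.4.6, pandas 2.3.3 and matplotlib 3.10.9 were used.

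The alternatives were quantile normalization, scaling to equal 75th percentiles or to hybridisation controls, centring ratios on their median, floors at the 25th (8.8) and 75th percentile (177.4), no floor with log2 of signal plus 16, the median over probe sets, only probe sets whose names carry no suffix for cross-matching targets, and medians without X-linked members.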

Additional observations from a re-analysis of the deposited data

How the results depend on the processing

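No genotype ratio of 2-fold or more changed sign under any of the 9 alternatives that gave it a value. Over those settings the members' median log2 ratio of LXR-DKO over WT ranged from -0.84 to -0.42 without LPS and from -1.02 to -0.41 with LPS. Scaling to hybridisation controls gave 5 members higher and 5 lower without LPS, and 6 lower with LPS. With LPS, 19 were lower under 75th percentile scaling and 17 after centring on the median ratio. The medians of all genes then moved by between -0.26 and 0.28. The median LPS response in WT, 0.048, was -0.012 after quantile normalization, -0.072 with hybridisation controls and -0.012 with probe sets without a suffix. With the median over probe sets, the LPS response reached 2-fold upwards for 1 member in WT cells (Gla), and in LXR-DKO cells for 1 upwards (Gla) and 1 downwards (Gm2a). The causes were not tested beyond the construction of each setting. Leaving out members on the X chromosome kept the sign of every median. With 1 array per group no replicate could be left out, and no paired analysis was possible because each group holds 1 sample and the labels give no replicate numbers. For Sgsh and Rragd, which lie near the floor, some ratios are lower limits.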

Other observations

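Atp6v0a1 and Naglu have no protein-coding gene between them in the RefSeq gene table of GRCm38.p6, and without LPS both were below 0, at -1.19 and -0.85, but with LPS they stood at -0.31 and -0.98. Gaa and Sgsh, with 2 protein-coding genes between them, had opposite signs in both conditions (with LPS not when scaled to hybridisation controls, where Gaa was at 0.03), at -0.36 and -0.28 for Gaa and at 1.77 or more and 1.58 for Sgsh.

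In heparan sulfate breakdown, Ids and Sgsh were above 0 in LXR-DKO in both conditions, and Idua, Naglu, Gusb and Hgsnat were below 0 in both. This grouping was made after the values were seen and has no test.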
